A study of Homo sapiens with 9 samples.

Results

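The genes described here encode the calcium pump of the endoplasmic reticulum (ER), its release and leak channels, and the sensors and pores of store-operated calcium entry. They were taken by symbol: ATP2A2, ITPR1, ITPR2, ITPR3, TMCO1, STIM1, STIM2, ORAI1, ORAI2 and ORAI3. They are 10 of the 58395 gene identifiers in the counts, and all 10 were among the 16761 genes that passed edgeR's filter on low counts. Their counts ranged from 130 to 24558 reads in a library.

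The RNA came from MDA-MB-231, a triple-negative human breast cancer cell line of mesenchymal character, taken 96 h after transfection with siRNA. The groups differ only in the siRNA by their labels: siNC is a non-targeting control, and siZIP7_1 and siZIP7_2 are separate siRNAs against SLC39A7, which encodes ZIP7, a zinc transporter that releases zinc from the ER. Each group had 3 libraries, 9 in all, and the labels name no other agent. The siRNAs against ZIP7 came from different suppliers, so the siRNA sequence and its chemistry cannot be told apart between them. The paper describes transfection in triplicate, without saying whether these were separate passages or days. P-values measure the spread between these libraries, which may be in part technical. RNA of whole cultures was sequenced, so a change in the mix of cells and a change in RNA per cell cannot be told apart.

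As background, SERCA2, the product of ATP2A2, pumps calcium from the cytosol into the ER at the cost of ATP. When a receptor at the cell surface activates phospholipase C, the messenger IP3 opens IP3 receptors (ITPR1, ITPR2 and ITPR3), and calcium leaves the ER. STIM proteins sense the fall in luminal calcium, move to sites where the ER touches the plasma membrane and open ORAI channels there, through which calcium enters the cell and refills the store. TMCO1 has been described as a channel that opens when the ER is overloaded with calcium, and also as a part of a translocon that inserts membrane proteins.

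Between 24153785 and 30454419 reads were counted on genes per library, with a median of 28212443 for siNC, 28636809 for siZIP7_1 and 26452146 for siZIP7_2. Levels are given as CPM, counts scaled to a common library size with edgeR's TMM factors. A count of 3, the floor used for detection, was at most 0.129 CPM on this scale, and covers counting error only. Reads that fell on no gene were 7.43% to 8.28% of all reads given to the counter in siNC, 7.80% to 9.62% in siZIP7_1 and 9.995% to 11.47% in siZIP7_2. The siNC and siZIP7_1 libraries overlapped and the siZIP7_2 libraries lay above both, and the part of these reads in the results was not tested. The target itself, SLC39A7 (ENSG00000112473, chr6:33200445-33204439), was at 321, 343 and 322 CPM in siNC, at 35.4, 32.9 and 38.6 CPM in siZIP7_1 and at 20.5, 19.5 and 17.6 CPM in siZIP7_2. It was lower in all 6 siZIP7 libraries, by -3.20 on the log2 scale for siZIP7_1 and -4.10 for siZIP7_2.

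The markers of the line were present in siNC, with VIM at 5529 ± 180 CPM, CD44 at 816 ± 39.3 CPM and AXL at 1911 ± 100.4 CPM (SD, n = 3). Among the genes known to be low in this line, PGR had 0 counts in siNC, ESR1 was at 0.0887 CPM and CDH1 at 0.466 CPM, while ERBB2 was at 74.2 CPM. Of 9 markers of blood, endothelial, fibroblast and muscle cells, 4 to 6 were above 3 counts in a library. Their summed level was 61.1 to 67.8 CPM in siNC, 118 to 126 CPM in siZIP7_1 and 189 to 210 CPM in siZIP7_2. Most of it was COL1A1, a fibrillar collagen, at 54.3, 112 and 185 CPM on average. MYH6 had no count in any library, and CD3E was at or under 3 counts in all. PTPRC, a blood marker, and RYR2, a muscle marker, were above 3 counts in all 9 libraries. In siNC, siZIP7_1 and siZIP7_2, PTPRC was at 0.402, 0.875 and 0.327 CPM and RYR2 at 6.30, 9.74 and 5.34 CPM on average. PDGFRA, a fibroblast marker like COL1A1, was at 0.197, 0.0674 and 0.445 CPM, from 16, 6 and 36 counts summed over each group. The markers of the line moved both ways. In siZIP7_1 and siZIP7_2, VIM was at 2687 and 2896 CPM on average, CD44 at 465 and 1793 CPM and AXL at 1738 and 1005 CPM. The epithelial keratin KRT8 was at 203.5, 497.9 and 183.5 CPM in siNC, siZIP7_1 and siZIP7_2, KRT18 at 247.0, 370.8 and 188.7 CPM, and CDH1 at 0.466, 4.18 and 0.998 CPM. PECAM1, an endothelial marker, was at 3.02, 0.102 and 8.63 CPM. CDH5, also endothelial, did not share the fall with siZIP7_1. It was at 0.0119, 0.135 and 1.27 CPM, from 1, 12 and 105 counts summed over the libraries of each group. The part of these shifts in the results was not tested.

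The promoters show which of these genes carry the sequence words of ER stress and zinc signalling. RefSeq windows of the 250 bases before a start site (GRCh38.p14) were on hand for 8 of the 10 genes, not for ITPR2 and ORAI1, and they were searched on both strands. The ER stress element, CCAAT and CCACG with 9 bases between them, was in 26 of 35116 windows, or 0.074%, and in none of these genes without a mismatch. With up to 1 mismatch it was in 1.36% of windows, among them one of ATP2A2. The sites are shown beside those of HSPA5 and HERPUD1, textbook targets of the unfolded protein response, with the fixed bases of the motif in capitals.
HSPA5 (window chr9:125241344-125241593, minus strand): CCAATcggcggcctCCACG
ATP2A2 (window chr12:110280997-110281246, plus strand): CCAATgagcggcgtCCACA
HERPUD1 (window chr16:56931892-56932141, plus strand): CCAATgggcggcagCCACA
The sites of ATP2A2 and HERPUD1 each differ from the motif by G19A, counted from 1 at the motif's 5′ end, and end 44 and 64 bases before the start site. A further ER stress element, ERSE-II, was in 18 of 35116 windows, or 0.0513%. The window of HERPUD1 held ERSE-II without a mismatch, whereas no window of ATP2A2 or of the other genes described here did. The word TGACGTGG, bound by stress-induced factors, was in 0.612% of windows and in that of ORAI2. The core of the metal response element, TGCACNC or TGCGCNC, was in 24.8% of windows, and among these genes in those of ITPR3 and ORAI3. These 3 windows are shown with the word found in capitals (in ITPR3 and ORAI3 it reads on the opposite strand), and that of STIM2, which held none of the words, for comparison. A match describes letters only and is no measurement of binding.
ITPR3 (chr6:33621072-33621321, plus strand): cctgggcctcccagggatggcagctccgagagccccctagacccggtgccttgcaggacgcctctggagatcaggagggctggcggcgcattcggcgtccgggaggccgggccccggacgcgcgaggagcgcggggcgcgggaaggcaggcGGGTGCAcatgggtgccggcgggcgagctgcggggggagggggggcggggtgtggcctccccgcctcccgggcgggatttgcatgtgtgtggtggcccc
ORAI3 (chr16:30948818-30949067, plus strand): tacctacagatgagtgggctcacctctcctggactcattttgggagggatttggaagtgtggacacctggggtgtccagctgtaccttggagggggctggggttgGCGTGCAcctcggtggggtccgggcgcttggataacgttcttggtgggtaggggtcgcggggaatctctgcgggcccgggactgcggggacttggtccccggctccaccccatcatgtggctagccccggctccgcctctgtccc
ORAI2 (chr7:102433325-102433574, plus strand): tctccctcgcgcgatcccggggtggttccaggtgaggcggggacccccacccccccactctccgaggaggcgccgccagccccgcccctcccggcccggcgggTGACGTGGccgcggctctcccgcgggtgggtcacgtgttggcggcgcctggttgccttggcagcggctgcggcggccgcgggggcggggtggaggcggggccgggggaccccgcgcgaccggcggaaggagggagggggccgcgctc
STIM2 (chr4:26860591-26860840, plus strand): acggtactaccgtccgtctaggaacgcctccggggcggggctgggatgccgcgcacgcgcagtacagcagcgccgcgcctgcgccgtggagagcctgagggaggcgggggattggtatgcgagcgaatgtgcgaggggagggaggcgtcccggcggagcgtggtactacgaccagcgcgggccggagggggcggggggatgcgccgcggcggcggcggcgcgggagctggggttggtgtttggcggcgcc

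The question for each siRNA was how these genes changed when ZIP7 was lowered. With siZIP7_1, ITPR2 rose 2.65-fold, ITPR3 2.07-fold, STIM2 1.70-fold and ORAI1 1.69-fold against siNC, while ITPR1 fell to 83.15%, ATP2A2 to 91.2% and STIM1 to 91.7% of siNC. With siZIP7_2, STIM2 rose 2.00-fold and TMCO1 1.55-fold, and STIM1 and ORAI1 fell to 72.1% and 75.4% of siNC.

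By edgeR's quasi-likelihood test at an adjusted p of 0.05, 10 of the 10 genes passed with siZIP7_1, 7 higher and 3 lower, beside 70.7% of all genes tested (34.8% higher and 35.9% lower). With siZIP7_2, 8 of the 10 passed, 4 higher (ITPR1, ITPR2, STIM2 and TMCO1) and 4 lower (ITPR3, ORAI1, ORAI2 and STIM1), beside 77.8% of all genes. Most genes passed in each comparison, so these counts say little about the 10 genes as a group. Against a change of at least 1.5-fold (edgeR's glmTreat), 4 passed with siZIP7_1, all upwards, where 27.7% of all genes did and 13.9% upwards. They were ITPR2, ITPR3, STIM2 and ORAI1. With siZIP7_2 only STIM2 passed that test, upwards, where 38.3% of all genes did and 20.0% upwards. The median log2 fold change of the 10 genes was 0.54 with siZIP7_1, beside -0.0069 for all genes, and 0.0058 with siZIP7_2, beside -0.0018. Their median size without sign was 0.54 and 0.34, beside 0.48 and 0.58 for all genes. Both comparisons share the siNC libraries, so they are not independent of each other. Upper-quartile scaling raised the median of all genes with siZIP7_2 by 0.106 on the log2 scale, and it then left 4 genes higher and 2 lower, ITPR3 and ORAI2 no longer passing.

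**Figure D1:**
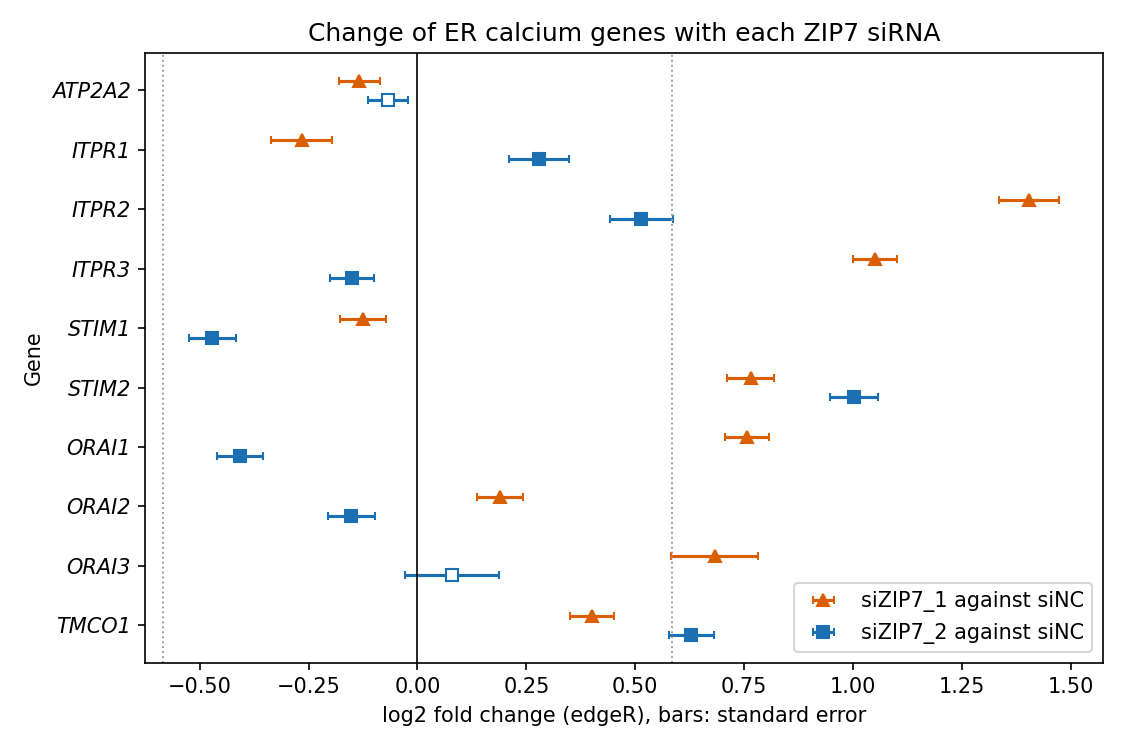
The log2 fold change (horizontal axis) of each gene (vertical axis) with siZIP7_1 (orange triangles) and siZIP7_2 (blue squares) against siNC, with the standard error as a bar, n = 3 libraries a group. Filled symbols passed edgeR's test and open ones did not, the dotted lines mark a 1.5-fold change, and STIM2 lies beyond the right one with each siRNA, at 0.77 and 1.00.

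The pump gene was slightly lower with siZIP7_1. ATP2A2 (ENSG00000174437, chr12:110280756-110351093) was at 822, 856 and 851 CPM in siNC, at 764, 788 and 754 CPM in siZIP7_1 and at 774, 808 and 832 CPM in siZIP7_2. The siZIP7_1 libraries were all below the siNC libraries, whereas the siNC and siZIP7_2 ranges overlapped. The log2 fold change was -0.13 (SE 0.0462, adjusted p = 0.0118 by edgeR) with siZIP7_1. With siZIP7_2 it was -0.067 (SE 0.0462, adjusted p = 0.187 by edgeR), an interval of -0.16 to 0.025 at 2 SE on each side, and its sign turned with upper-quartile scaling (0.040), while it passed as a fall with no filter on low counts (-0.12, adjusted p = 0.0260). The fall with siZIP7_1 no longer passed without siNC replicate 2 (adjusted p = 0.0533 by edgeR), siNC replicate 3 (0.0592) or siZIP7_1 replicate 3 (0.0573).

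The IP3 receptor genes responded each in its own way. ITPR3 (ENSG00000096433, chr6:33620365-33696574) encodes the dominant receptor by RNA level in these cells. It was at 376, 390 and 351 CPM in siNC, at 807, 781 and 728 CPM in siZIP7_1 and at 345, 324 and 337 CPM in siZIP7_2. No siZIP7_1 library came near the others, and the siZIP7_2 libraries lay just below the siNC libraries. On the log2 scale ITPR3 changed by 1.05 with siZIP7_1 (SE 0.0506, adjusted p = 3.33e-17 by edgeR) and by -0.15 with siZIP7_2 (SE 0.0506, adjusted p = 0.00846). The small fall with siZIP7_2 did not pass without siNC replicate 2 (adjusted p = 0.0623 by edgeR) or siZIP7_2 replicate 2 (0.0621), nor with upper-quartile scaling (0.417) or at least 10 counts per library (log2 -0.076, adjusted p = 0.165). ITPR3 lies on the same chromosome as the siRNA target, 416 kb away, and 10.4% of its exonic length overlaps UQCC2 on the opposite strand.

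ITPR2 (ENSG00000123104, chr12:26336515-26833198, minus strand), the receptor subtype most sensitive to IP3, was at 18.01, 18.6 and 16.4 CPM in siNC, at 49.4, 45.6 and 45.2 CPM in siZIP7_1 and at 23.0, 25.2 and 27.3 CPM in siZIP7_2. The groups did not overlap, and siZIP7_2 lay between the others. The log2 change of ITPR2 was 1.40 (SE 0.0689, adjusted p = 5.13e-17 by edgeR) for siZIP7_1 against siNC and 0.51 (SE 0.0726, adjusted p = 2.71e-07) for siZIP7_2. ITPR1 (ENSG00000150995, chr3:4493345-4847840), the subtype best known from neurons, was at 22.6, 25.4 and 21.3 CPM in siNC, at 19.7, 19.8 and 18.04 CPM in siZIP7_1 and at 28.1, 27.7 and 28.0 CPM in siZIP7_2. Here the order was siZIP7_1, siNC and siZIP7_2, again without overlap. ITPR1 fell by 0.27 on the log2 scale with siZIP7_1 (SE 0.0709, adjusted p = 0.00146 by edgeR) and rose by 0.28 with siZIP7_2 (SE 0.0688, adjusted p = 0.000598).

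The luminal calcium sensors shifted from STIM1 towards STIM2. STIM2 (ENSG00000109689, chr4:26857678-27025381), the sensor that responds to small falls in ER calcium, was at 25.0, 25.4 and 25.6 CPM in siNC, at 43.4, 42.9 and 42.9 CPM in siZIP7_1 and at 51.4, 50.4 and 50.5 CPM in siZIP7_2. Its libraries agreed closely within each group, and the groups did not overlap, with siNC far below the others. STIM2 rose by 0.77 on the log2 scale with siZIP7_1 (SE 0.0546, adjusted p = 3.07e-13 by edgeR) and by 1.00 with siZIP7_2 (SE 0.0543, adjusted p = 4.29e-16). STIM1 (ENSG00000167323, chr11:3854527-4093210), the main sensor of a strongly emptied store, was at 66.0, 68.3 and 61.1 CPM in siNC, at 61.0, 60.8 and 57.3 CPM in siZIP7_1 and at 46.4, 46.0 and 48.5 CPM in siZIP7_2. The siZIP7_2 libraries were clearly lower, while the highest siZIP7_1 library lay right under the lowest siNC library. STIM1 fell by 0.47 on the log2 scale with siZIP7_2 (SE 0.0539, adjusted p = 5.48e-09 by edgeR). With siZIP7_1 the log2 fold change was -0.13 (SE 0.0527, adjusted p = 0.0355 by edgeR), which did not pass under 9 of the 13 alternative settings, its adjusted p reaching 0.211 without siNC replicate 2, 0.168 without siZIP7_1 replicate 3, 0.0890 without siNC replicate 1 and 0.0504 without siZIP7_1 replicate 1.

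Among the pores, ORAI1 stood out. ORAI1 (ENSG00000276045, chr12:121626550-121642677), the channel that carries most store-operated current in many cell types, was at 71.1, 77.5 and 69.3 CPM in siNC, at 122, 126 and 120 CPM in siZIP7_1 and at 55.2, 52.1 and 56.8 CPM in siZIP7_2. Every siZIP7_1 library lay above every siNC library, and every siZIP7_2 library below. Its log2 change was 0.76 for siZIP7_1 against siNC (SE 0.0509, adjusted p = 8.28e-14 by edgeR) and -0.41 for siZIP7_2 (SE 0.0531, adjusted p = 6.24e-08). ORAI2 (ENSG00000160991, chr7:102433106-102456821), which can join ORAI1 in mixed channels, was at 56.2, 53.2 and 53.5 CPM in siNC, at 61.0, 63.6 and 61.2 CPM in siZIP7_1 and at 52.0, 46.7 and 48.2 CPM in siZIP7_2. It had the same order of groups as ORAI1 at a smaller scale, at log2 0.19 for siZIP7_1 (SE 0.0525, adjusted p = 0.00210 by edgeR) and log2 -0.15 for siZIP7_2 (SE 0.0535, adjusted p = 0.0119). The fall of ORAI2 with siZIP7_2 did not pass without siZIP7_2 replicate 2 (adjusted p = 0.0941 by edgeR) or replicate 3 (0.0528), with upper-quartile scaling (0.451), at least 10 counts per library (log2 -0.077, adjusted p = 0.181) or with DESeq2 (0.0596).

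ORAI3 (ENSG00000175938, chr16:30949066-30956461), found in mammals and part of some mixed channels, was at 5.77, 5.59 and 6.02 CPM in siNC, at 8.995, 9.48 and 9.44 CPM in siZIP7_1 and at 6.33, 5.43 and 6.69 CPM in siZIP7_2. Only siZIP7_1 stood apart, at a log2 change of 0.68 against siNC (SE 0.1004, adjusted p = 6.49e-07 by edgeR). With siZIP7_2 it was 0.079 (SE 0.108, adjusted p = 0.512 by edgeR), an interval of -0.14 to 0.29 at 2 SE on each side. These values are uncertain, because 52.9% of the exonic length of ORAI3 is shared with AC135048.1 on the same strand. AC135048.1 had 0 counts in every library, and reads in the shared stretch may have been left out of both genes.

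TMCO1 (ENSG00000143183, chr1:165724293-165827755, minus strand), the overload channel and translocon subunit, was at 91.3, 95.5 and 104 CPM in siNC, at 126, 134 and 124 CPM in siZIP7_1 and at 150, 145 and 155 CPM in siZIP7_2. The groups rose in that order without overlap. TMCO1 rose by 0.40 on the log2 scale with siZIP7_1 (SE 0.0514, adjusted p = 5.91e-08 by edgeR) and by 0.63 with siZIP7_2 (SE 0.0513, adjusted p = 4.73e-12). The latter did not pass the 1.5-fold test (adjusted p = 0.167 by glmTreat), which 38.3% of all genes passed with siZIP7_2. Without siNC replicate 3, TMCO1 joined STIM2 past that test, giving 2 genes.

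The siRNAs were also compared with each other, a contrast of their own means in which the siNC libraries enter through the shared estimate of the spread, the filter on low counts and the TMM scaling. By edgeR 9 of the 10 genes differed, 3 higher and 6 lower in siZIP7_2 than in siZIP7_1, beside 78.7% of all genes tested. The log2 difference was -1.20 for ITPR3 (SE 0.0508, adjusted p = 9.00e-19), -1.16 for ORAI1 (SE 0.0519, adjusted p = 3.15e-18) and -0.89 for ITPR2 (SE 0.0657, adjusted p = 4.50e-13), and these 3 passed the 1.5-fold test, as did 40.6% of all genes. ITPR1 was higher in siZIP7_2 by 0.54 (SE 0.0692, adjusted p = 3.76e-08 by edgeR), and ORAI3 was lower, at -0.60 (SE 0.0989). The remaining log2 differences were -0.35 for STIM1, -0.34 for ORAI2, 0.24 for STIM2 and 0.23 for TMCO1. For ATP2A2 the difference was 0.066 (SE 0.0462, adjusted p = 0.190 by edgeR), with an interval of -0.026 to 0.16 at 2 SE on each side, and it passed with upper-quartile scaling (0.15, adjusted p = 0.00229) and with at least 10 counts per library (0.12, adjusted p = 0.0189). ZIP7 RNA itself was lower in siZIP7_2 than in siZIP7_1, by 0.89 on the log2 scale, and its part in these differences was not tested.

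To set genes beside each other, levels were divided by exonic length and given as RPKM, which is CPM per kilobase of exon. In siNC the order was ATP2A2 at 61.3 ± 1.34 RPKM, ITPR3 at 37.7 ± 2.00, ORAI1 at 32.1 ± 1.89, TMCO1 at 17.4 ± 1.18 and STIM1 at 9.14 ± 0.518 RPKM (SD, n = 3). ORAI2 followed at 4.89 ± 0.151 RPKM, STIM2 at 3.67 ± 0.0446, ORAI3 at 2.19 ± 0.0817, ITPR2 at 1.39 ± 0.0905 and ITPR1 at 0.712 ± 0.0650 RPKM. No neighbours in this order overlapped in siNC. In siZIP7_1, ITPR3 came first at 78.2 ± 4.12 RPKM, above ATP2A2 at 55.9 ± 1.30, and ATP2A2 overlapped ORAI1, at 54.2 ± 1.29 RPKM. ITPR2, at 3.66 ± 0.180 RPKM, and ORAI3, at 3.52 ± 0.102 RPKM, overlapped as well. In siZIP7_2, TMCO1 at 26.9 ± 0.873 RPKM stood above ORAI1 at 24.2 ± 1.06, STIM2 at 7.35 ± 0.0733 above STIM1 at 6.59 ± 0.186, and ORAI3 overlapped ITPR2. Gene length matters for this order: with the longest single transcript, ATP2A2 stayed first in siZIP7_1, at 135 RPKM, STIM1 stayed above STIM2 in siZIP7_2, at 10.8 beside 9.85 RPKM, and ITPR1 passed ITPR2 in siNC, at 2.27 beside 1.55 RPKM.

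**Figure D2:**
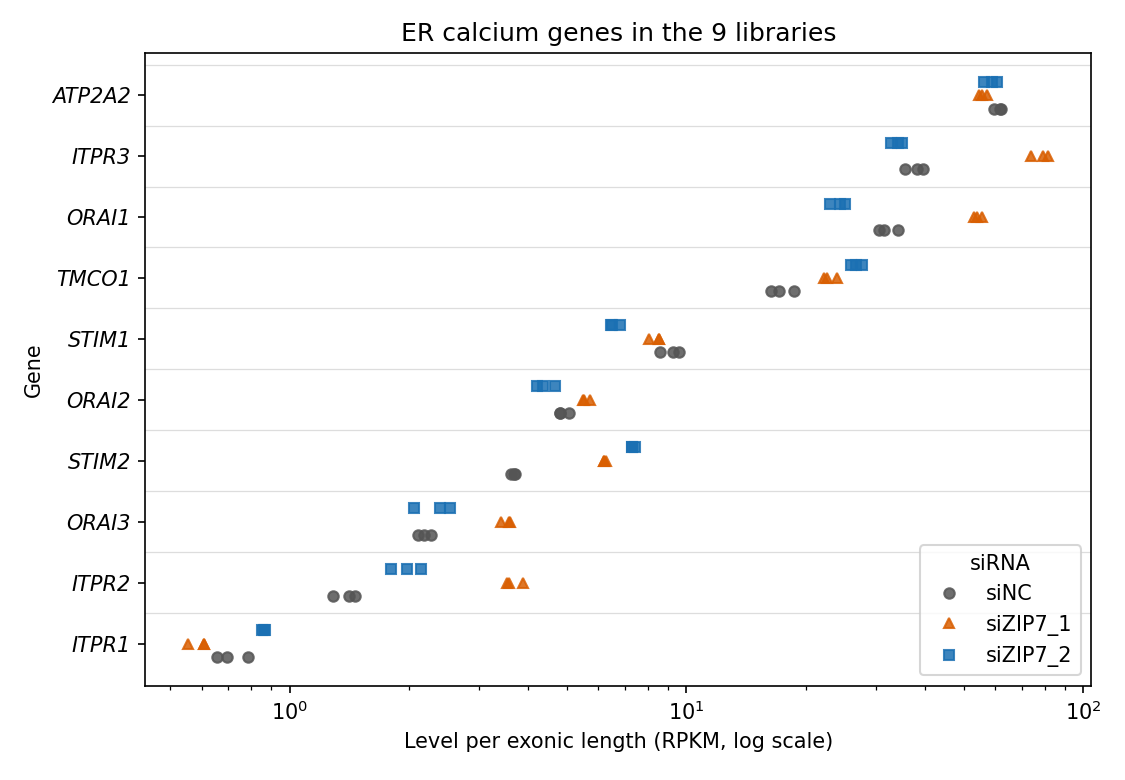
The level per exonic length in RPKM (horizontal log axis) of each gene (vertical axis, in the order of the siNC means), one point per library for siNC (grey circles), siZIP7_1 (orange triangles) and siZIP7_2 (blue squares). The siZIP7_1 points of ITPR3, ORAI1 and ITPR2 lie to the right of both other groups, and STIM2 and TMCO1 step to the right from siNC to siZIP7_1 to siZIP7_2.

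Shares within each family describe its makeup by RNA. STIM2 made up 28.7% ± 1.35 of the summed RPKM of STIM1 and STIM2 in siNC, 42.7% ± 0.770 in siZIP7_1 and 52.7% ± 0.808 in siZIP7_2 (SD, n = 3). The groups did not overlap, and with the longest transcript the shares were 24.8%, 37.9% and 47.8%, so the rise was there with each length while the crossing of equal shares was not. The summed level of the pair was 12.8 ± 0.491, 14.6 ± 0.320 and 13.9 ± 0.179 RPKM. ITPR3 held 94.7% of the IP3 receptor RNA in siNC, 94.8% in siZIP7_1 and 92.3% in siZIP7_2. The sum of the 3 receptors was 39.8 ± 2.15, 82.5 ± 4.29 and 36.8 ± 1.04 RPKM, so that siZIP7_1 libraries alone stood apart. Within it, the share of ITPR1 was 1.79% ± 0.0786, 0.717% ± 0.0142 and 2.34% ± 0.0478, and with the longest transcript it was 5.45%, 2.23% and 7.04%, above the share of ITPR2 in siNC (3.73%) and siZIP7_2 (5.67%). ORAI1 held 81.9% ± 1.14 of the ORAI RNA in siNC, 85.6% ± 0.226 in siZIP7_1 and 78.2% ± 0.607 in siZIP7_2, and the sum over the family was 39.2, 63.3 and 30.9 RPKM.

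**Figure D3:**
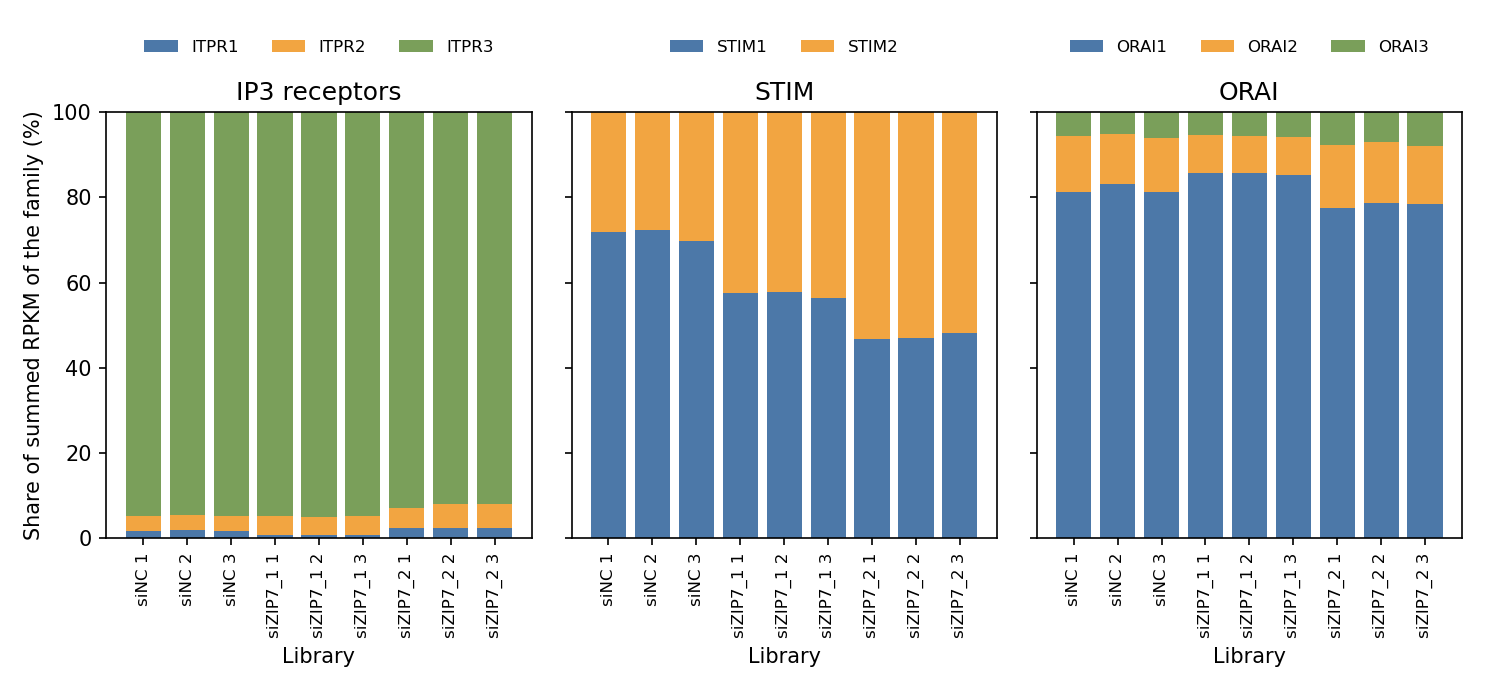
The share in percent (vertical axis) of each gene in the summed RPKM of its family, one bar per library (horizontal axis), for the IP3 receptors, STIM and ORAI. The STIM2 part grows from 27.7% to 30.2% in siNC to 42.1% to 43.6% in siZIP7_1 and 51.8% to 53.3% in siZIP7_2, while ITPR3 and ORAI1 fill most of their families in every library.

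For the 4 genes whose group means spanned at least 2-fold, the genes with the most similar profile were sought among the 13735 genes averaging 1 CPM or more, by the root mean square (RMS) difference of centred log2 CPM over the 9 libraries. ORAI1 was closest to CNPPD1 (RMS 0.0365), CLTB (0.0483), a clathrin light chain, and PTPN21 (0.0526), a tyrosine phosphatase. CLTB, for example, was at 161, 289 and 121 CPM in siNC, siZIP7_1 and siZIP7_2. STIM2 was closest to the kinases DSTYK (RMS 0.0451) and DYRK1A (0.0521) and to PPFIA1 (0.0554). ITPR3 was closest to GRAMD4 (RMS 0.0627), PEA15 (0.0655) and DENND1A (0.0655), and ITPR2 to STX6 (0.0661), followed by IGF1R (0.0731). The likeness describes these libraries, in which 3 groups set most of the profile.

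The 9 wider lists cover further genes of calcium handling and signalling, inside the ER and outside it. They hold 127 genes, of which 106 passed the filter and 21 did not, with at most 11 counts in a library. With siZIP7_1, 38 were higher and 46 lower by edgeR, 79.2% of them beside 70.7% of all genes (34.8% higher and 35.9% lower). With siZIP7_2, 41 were higher and 49 lower, 84.9% beside 77.8% of all genes (38.5% higher and 39.3% lower). The median change over the 106 genes was -0.017 (log2) with siZIP7_1 and -0.076 with siZIP7_2. The lists were not tested as sets.

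Of the other calcium pumps, 5 of 12 listed genes were tested. With siZIP7_1, 1 was higher and 3 lower (80.0% beside 70.7% of all genes, median log2 -0.91), and with siZIP7_2 4 were higher and 1 lower (all 5, beside 77.8%, median 0.98). ATP2B4, a pump of the plasma membrane, was at 89.1 ± 1.18, 47.5 ± 1.41 and 176.8 ± 4.39 CPM in siNC, siZIP7_1 and siZIP7_2 (SD, n = 3). ATP2A1, the SERCA pump of fast muscle, was at 1.34, 2.72 and 4.55 CPM. Of the other release channels, 5 of 8 were tested, with 1 higher and 3 lower with each siRNA (80.0%, beside 70.7% and 77.8% of all genes). The equal counts came from different genes: the higher one was RYR2 with siZIP7_1 and another gene with siZIP7_2. Each of them was lower with the other siRNA. With siZIP7_2 the count of 4 became 2 with upper-quartile scaling and under a filter of 10 counts in each library. GRINA, a TMBIM family protein, fell from 163 to 86.5 CPM with siZIP7_1 and to 145 CPM with siZIP7_2, where the fall did not pass with upper-quartile scaling (adjusted p = 0.224 by edgeR) or under the 10-count filter (0.0628). TMBIM4, of the same family, fell from 9.11 to 6.87 and 6.06 CPM. RYR2, a ryanodine receptor, rose from 6.30 to 9.74 CPM with siZIP7_1. With siZIP7_2 RYR2 was at 5.34 CPM (log2 -0.24, adjusted p = 0.0416 by edgeR), which did not pass under 9 alternative settings, among them DESeq2 (0.182) and the fits without siNC replicate 1 (0.137), siNC replicate 3 (0.0925), siZIP7_2 replicate 1 (0.129) or siZIP7_2 replicate 3 (0.0930).

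Upstream of the IP3 receptors, all 12 phospholipase C genes were tested, with 8 higher and 3 lower with siZIP7_1 (91.7%, beside 70.7% of all genes) and 7 higher and 5 lower with siZIP7_2 (all 12, beside 77.8%). PLCG2 rose from 9.36 to 21.0 and 13.1 CPM, and PLCH2 from 3.93 to 4.92 and 21.6 CPM. The small rise of PLCH2 with siZIP7_1 (adjusted p = 0.0241 by edgeR) did not pass without siNC replicate 1 (0.0701), siNC replicate 2 (0.139) or siZIP7_1 replicate 3 (0.0642), or with DESeq2 (0.0532). PLCE1 fell from 38.3 to 31.6 and 19.5 CPM, and PLCB1 from 7.95 to 5.12 CPM with siZIP7_1. With siZIP7_2 PLCB1 was at 6.61 CPM, its libraries overlapping siNC, and its adjusted p of 0.0229 by edgeR was lost under 7 alternative settings, among them DESeq2 (0.124) and the fits without siNC replicate 1 (0.0681), siNC replicate 3 (0.0882), siZIP7_2 replicate 2 (0.0941) or siZIP7_2 replicate 3 (0.116). PLCD4 was at 1.73 CPM in siNC, near the floor in siZIP7_1 at 0.182, 0.172 and 0.0314 CPM, and at 3.66 CPM in siZIP7_2.

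Of the partners and regulators of IP3 receptors, 18 of 22 were tested, with 5 higher and 9 lower with siZIP7_1 (77.8%, beside 70.7% of all genes) and 6 higher and 11 lower with siZIP7_2 (94.4%, beside 77.8%). CHERP, an ER calcium homeostasis protein also known from splicing, fell from 249.7 ± 8.15 to 134.0 ± 3.68 and 131.4 ± 0.434 CPM (SD, n = 3). BCL2, which binds IP3 receptors and dampens release, fell from 13.8 to 7.54 and 8.49 CPM. AHCYL2 rose from 16.3 to 21.7 and 24.1 CPM and ERP44, a luminal thiol protein that binds ITPR1, from 52.7 to 65.0 and 63.6 CPM. ITPRIP, which modulates receptor sensitivity to calcium, was at 129, 136 and 123 CPM in siNC, at 55.9, 57.9 and 59.1 CPM in siZIP7_1 and at 309, 297 and 318 CPM in siZIP7_2. Its log2 difference between the siRNAs was 2.42 (SE 0.0506, adjusted p = 4.67e-26 by edgeR).

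Around STIM and ORAI, 16 of 19 regulators of store-operated entry were tested, with 5 higher and 9 lower with each siRNA (87.5%, beside 70.7% and 77.8% of all genes). JPH2, a junctophilin that ties the ER to the plasma membrane, rose from 2.14 ± 0.273 to 10.6 ± 0.622 and 12.3 ± 0.197 CPM (SD, n = 3), or by 2.32 on the log2 scale with siZIP7_1 and 2.54 with siZIP7_2. Its relative JPH1 fell from 8.59 to 2.38 and 2.78 CPM, and ESYT1, a tether at the same contact sites, from 279 to 179.7 and 119 CPM. HOMER3, a scaffold protein, rose from 33.0 to 45.1 and 73.8 CPM, whereas HOMER2 fell from 15.7 to 8.97 CPM with siZIP7_1 and rose to 21.6 CPM with siZIP7_2.

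Inside the ER lumen, 14 of 17 calcium binders were tested, with 6 higher and 3 lower with siZIP7_1 (64.3%, beside 70.7% of all genes) and 7 higher and 4 lower with siZIP7_2 (78.6%, beside 77.8%). HSPA5, the chaperone BiP, rose from 754 ± 16.4 to 1099 ± 40.6 and 1636 ± 172 CPM (SD, n = 3). HSP90B1 rose from 1007 to 1354 and 1129 CPM. RCN1, a reticulocalbin, fell from 86.6 to 18.7 CPM with siZIP7_1 and rose to 103 CPM with siZIP7_2. Of the 10 translocon partners of TMCO1, 1 was higher and 6 lower with siZIP7_1 (7 of 10, beside 70.7% of all genes), and 5 were higher and 3 lower with siZIP7_2 (80.0%, beside 77.8%). NCLN fell from 181 to 143 and 99.98 CPM, NOMO2, which has near-identical copies and is uncertain, from 13.7 to 10.75 and 11.1 CPM, and SEC61A1 was at 419, 339 and 631 CPM.

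In mitochondria, which take up calcium released at ER contacts, all 12 listed genes were tested, with 5 higher and 5 lower with siZIP7_1 (83.3%, beside 70.7% of all genes) and 1 higher and 8 lower with siZIP7_2 (75.0%, beside 77.8%). SLC8B1, the sodium and calcium exchanger, rose from 58.3 to 64.3 and 78.6 CPM. The rise of SLC8B1 with siZIP7_1 (adjusted p = 0.0223 by edgeR) did not pass without siNC replicate 1 (0.0553), siNC replicate 3 (0.0779) or siZIP7_1 replicate 1 (0.103), or with DESeq2 (0.0543). MCUB, an inhibitory subunit of the uniporter, fell from 39.8 to 25.0 and 32.9 CPM, and VDAC3, an outer membrane channel, from 87.8 to 67.8 and 65.1 CPM. MICU3, a regulator of uptake, rose from 4.65 to 11.3 CPM with siZIP7_1 and fell to 3.50 CPM with siZIP7_2. Downstream, 14 of 15 genes of calcineurin and NFAT were tested, with 6 higher and 5 lower with siZIP7_1 (78.6%, beside 70.7% of all genes) and 5 higher and 5 lower with siZIP7_2 (71.4%, beside 77.8%). NFATC2, a transcription factor that calcineurin activates, rose from 21.0 to 36.7 and 58.5 CPM. PPP3R1, the regulatory subunit of calcineurin, rose from 115.5 to 148 and 157 CPM, whereas the catalytic subunit PPP3CA fell from 142.5 to 122 and 108 CPM. PPP3CB, also catalytic, rose from 98.8 to 142 CPM with siZIP7_1 and fell to 43.96 CPM with siZIP7_2.

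**Figure D4:**
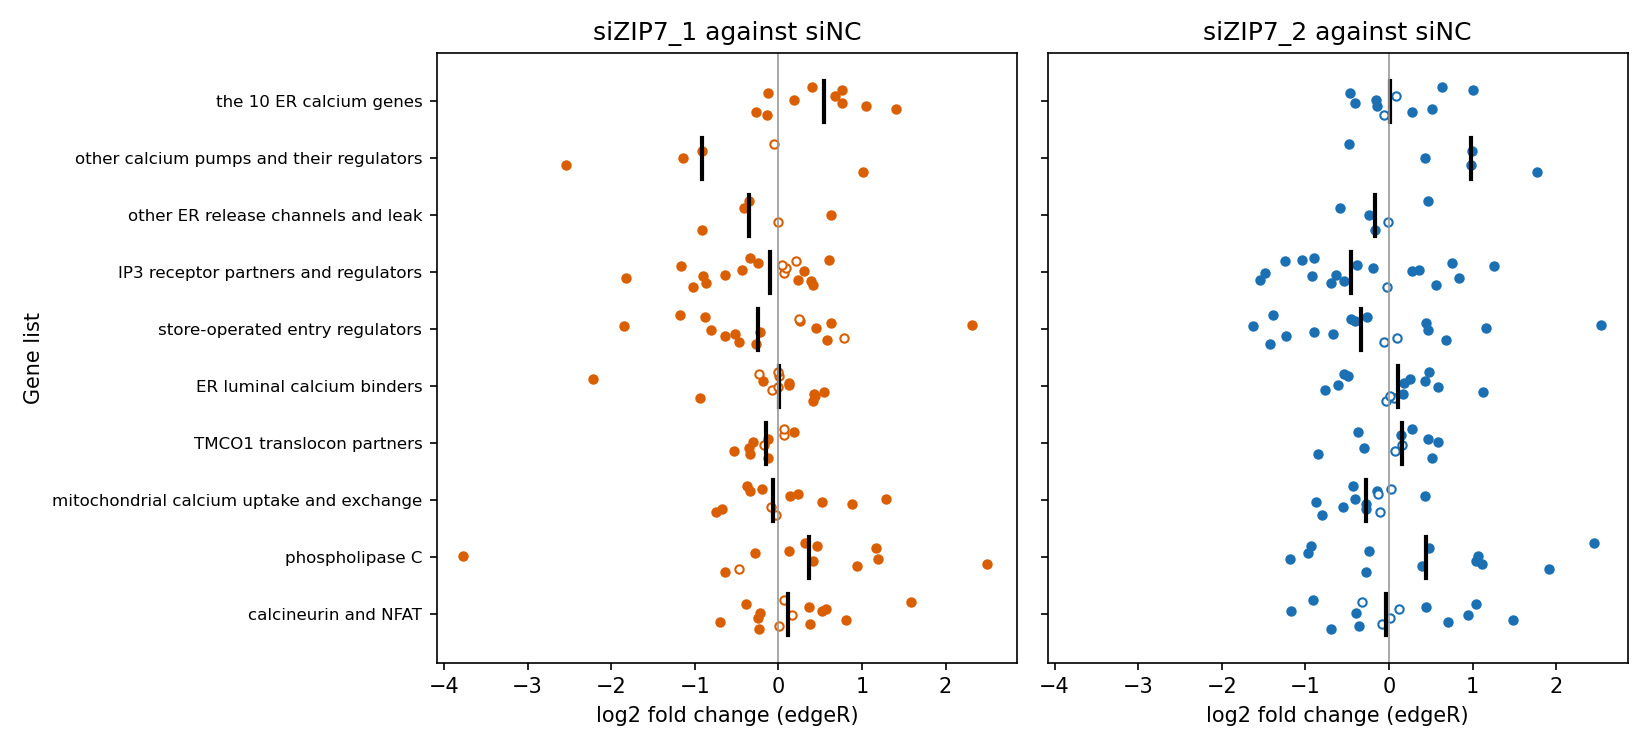
The log2 fold change (horizontal axis) with siZIP7_1 (left) and siZIP7_2 (right) against siNC, one point per tested gene in the 10 ER calcium genes and the 9 wider lists (vertical axis). Filled points passed edgeR's test, black bars are list medians and the grey line is the median of all genes; the 10 genes have a median of 0.54 with siZIP7_1 and 0.0058 with siZIP7_2.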

How the data were processed

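Single-read RNA-seq of 9 libraries was used, with groups taken from the labels. The authors deposited raw read counts for each Ensembl gene, not normalized, and per the labels used Trim Galore 0.4.1, FastQC 0.11.2, STAR, HTSeq 0.6.1 and DESeq2 1.16.1. Their build, annotation and strand setting are not given in the sources used here, so reads where genes overlap on opposite strands may have been left out of both. Of 58395 identifiers, 58275 were in GENCODE release 29 (GRCh38), which gave symbols, positions and exonic lengths. The counter's summary lines were left out of library sizes. Reads in several genes were 2.67% to 2.91% and counted for none.

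Counts were fitted in R 4.3.3 with edgeR 4.0.16 (TMM, filterByExpr, quasi-likelihood test, one fit of 3 groups, 6 residual degrees of freedom, Benjamini-Hochberg over 16761 genes at 0.05). The methods of the study name no test for these counts. A second test (glmTreat) asked for a change of at least 1.5-fold. SE is the log2 fold change over the square root of F. The steps were tested on simulated data. Alternatives were DESeq2 1.42.0, its size factors, upper-quartile scaling, other filters, a replicate block, fits to the pair of groups, a 1.8-fold test, each library left out, and transcript length.

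The members and lists were chosen with earlier results of these data known. Named list genes averaged 1 CPM or more and passed with each siRNA: up to 2 with the largest mean rise, 2 with the largest mean fall and 1 with the largest opposite difference per list. Promoter windows came from RefSeq (GRCh38.p14). A few genes that these rules name are not reported here.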

Additional observations from a re-analysis of the deposited data

Results flagged for a closer look

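These results were singled out because the siRNAs against ZIP7 gave different values under the same contrast, by the direct edgeR test of siZIP7_2 against siZIP7_1, in which 78.7% of all genes passed. The log2 difference was 0.54 for ITPR1, -0.89 for ITPR2 and -1.20 for ITPR3 among the IP3 receptors. Among the sensors it was -0.35 for STIM1 and 0.24 for STIM2. For the pores it was -1.16 for ORAI1, -0.34 for ORAI2 and -0.60 for ORAI3, and for TMCO1 it was 0.23.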

How the results depend on the processing

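The count of the 10 genes past the threshold stayed within 1.5 times in 39 of 39 alternatives, and the count over the wider lists in 39 of 39. Of 390 alternative log2 fold changes of the 10 genes, 364 kept their direction and side of the threshold, 21 no longer passed, 3 newly passed and 2 changed sign. The sign of ATP2A2 with siZIP7_2 against siNC turned with upper-quartile scaling (0.040) and when every library had to reach 10 counts (0.0077). Upper-quartile scaling moved the median of all genes by 0.106 there, and DESeq2, over a larger set with more low genes, by 0.123. The 10-count filter moved that median by -0.0055 over its smaller set. Under it, ITPR3 and ORAI2 also moved upwards with siZIP7_2, each from -0.15, to -0.076 and -0.077. Past 1.5-fold, 4 genes with siZIP7_1 became 2 against a 1.8-fold change, while the count over all 16761 genes went from 4636 to 2836. With siZIP7_2, 1 gene became 2 with upper-quartile scaling and 2 under the 10-count filter. Leaving out each library gave 1 to 2 (2 without siNC replicate 3, TMCO1 joining STIM2). In the main fit 38.3% of all genes passed that test with siZIP7_2. With the replicate number as a block (replicate block), 10 genes passed for siZIP7_1 against siNC, 8 for siZIP7_2 against siNC and 9 for siZIP7_2 against siZIP7_1. These counts were the same without the block, where 70.7%, 77.8% and 78.7% of all genes passed in that order. The replicate numbers pair nothing visible: libraries of the same number in different groups had deviations correlated between -0.0493 and 0.0754. The same number correlated best in 8 of 18 cases.

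Of 1401 alternative values of other named genes, 1347 kept their call, 39 no longer passed, 5 newly passed and 10 changed sign, all 10 between the siRNAs and on values that did not pass. For CHERP these were 0.0067 with the size factors of DESeq2, 0.052 with upper-quartile scaling and 0.023 under the 10-count filter. For ERP44 they were 0.0035, 0.049 and 0.020 in the same order, and 0.018 without siZIP7_1 replicate 2. Leaving out each library gave -0.074 to 0.018 for ERP44, -0.015 (without siZIP7_2 replicate 3) to 0.33 for JPH1 and -0.0082 (without siZIP7_1 replicate 3) to 0.16 for PPP3R1, and VDAC3 turned to 0.022 with upper-quartile scaling. The cause of these turns was not tested. No count of the 10 genes was under 130, whereas PLCD4, among the other named genes, was near the floor in siZIP7_1. The part of sequencing depth in the results was not tested.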
